A study of Mus musculus with 13 samples.

Results

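Mouse melanoma cells titled NLS and numbered line 7 were compared with cells titled NLS and numbered line 6, by mRNA sequencing of 3 libraries of each line. These are 6 of the 13 libraries of the series, chosen by their titles. The series concerns soluble adenylyl cyclase (sAC), expressed in chosen compartments of melanoma cells. Both lines were grown in vitro as a melanoma cell line, with 1 library each without doxycycline (t0), after 6 h (t6) and after 48 h (t48) of doxycycline in the medium. Doxycycline is an antibiotic that commonly serves as the switch of inducible transgenes. The compartment label of both lines was none at t0 and nuclear at t6 and t48. The 3 remaining NLS libraries are line 16 and the other 4 are the LacZ lines 10 and 12, and neither enters the main test. The labels name no promoter and do not say whether a line number is 1 clone. Nor do they say whether the libraries of a line came from separate cultures. With 1 library at each line and label, the p-values reflect the spread left after line and time label. That spread mixes line differences that change with the label and variation between libraries, which may be technical.

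Soluble adenylyl cyclase, encoded in the mouse by Adcy10, makes cyclic AMP (cAMP) in response to bicarbonate and calcium and is found away from the plasma membrane, also in the nucleus. Cyclic AMP acts through protein kinase A, which phosphorylates the transcription factor CREB, and through the exchange factors Rapgef3 and Rapgef4. CREB binds the cAMP response element, whose full form reads TGACGTCA, and drives a set of early genes, among them the Nr4a nuclear receptors, that phosphodiesterases and other feedback genes then shut off. In pigment cells cAMP is known for raising Mitf and the pigment enzymes.

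The level of Adcy10 followed the line number and not the time label. Adcy10 (ENSMUSG00000026567, chr1:165485183-165576774 in GRCm38) had 199, 180.0 and 199 CPM in line 7, against 366, 370.2 and 339.6 CPM in line 6 at t0, t6 and t48. CPM are read counts scaled to a common depth. The line 7 values lay below all line 6 values, and the 95% Poisson intervals, which cover counting error alone, were 193 to 205 CPM in line 7 and 358 to 374 CPM in line 6 at t0. The log2 fold change was -0.90 (SE 0.06, edgeR adjusted p = 2.18e-05), a 1.86-fold lower level in line 7, and without the time label in the fit the adjusted p was 0.0999. Within the same 6 libraries the labelled doxycycline times gave Adcy10 adjusted p = 0.562 for t6 and 0.600 for t48 over t0, by edgeR. Line 16 had 0.671, 1.19 and 1.22 CPM and the LacZ lines 0 to 0.167 CPM. Of 10 annotated Adcy10 transcripts, 3 held all reads in lines 7 and 6, led by ENSMUST00000195194 with 53.3 to 57.6% of the Adcy10 reads in line 7 and 53.3 to 55.6% in line 6. The reads do not tell a transgene from the cells' own gene.

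Other features followed the time label and not the line number, and directions below are therefore between libraries labelled line 7 and libraries labelled line 6. Genes at 1 CPM or more in every library of 1 label and under 0.1 CPM in every library of another, among the 9 NLS libraries, numbered 1 between lines 7 and 6 and 9 between t6 and t0, 15 between t48 and t0, and 5 between t48 and t6. Tshz3, a zinc finger factor gene chosen after its values were seen, had 0, 7.00 and 5.92 CPM in line 7 and 0, 7.14 and 5.85 CPM in line 6 at t0, t6 and t48. The median log2 fold change of a chromosome ranged from -0.04 to 0.03 for line 7 over line 6, against -0.09 to 0.30 for t6 over t0 and -0.09 to 0.23 for t48 over t0 in the same libraries. Chromosome 13 had the highest median at t6 and chromosome 7 at t48. What the labels t0, t6 and t48 separate was not tested. The files do not show whether line and time labels were exchanged between libraries, and line 7 over line 6 names the titles alone. Library totals were 18947686 to 22584628 estimated reads in line 7 and 21070676 to 22553004 in line 6.

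**Figure D1:**
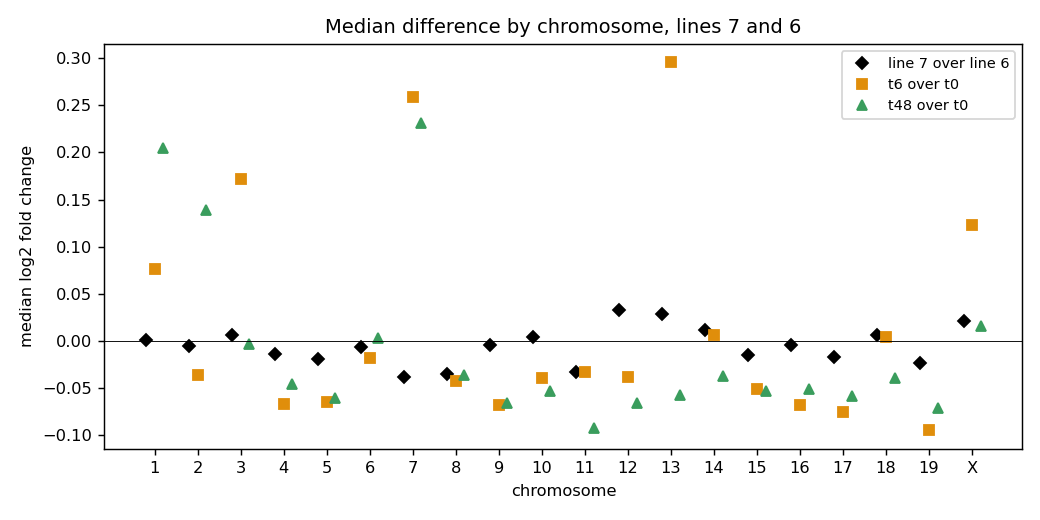
Median log2 fold change of the tested genes of each chromosome (vertical axis) by chromosome (horizontal axis), from 1 fit of the 6 libraries: line 7 over line 6 (black diamonds), t6 over t0 (orange squares) and t48 over t0 (green triangles). The line 7 over line 6 medians stay between -0.04 and 0.03, while those between time labels reach 0.30 on chromosome 13 and 0.26 on chromosome 7.

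To find how far lines that both carry high Adcy10 reads differ elsewhere, genes were tested with edgeR's quasi-likelihood test with the time label as a block, and a gene was called where its Benjamini-Hochberg adjusted p was below 0.05. Of 11588 genes tested 857 were called (7.40%), 454 higher in line 7 (3.92%) and 403 lower (3.48%). The differences were small: the median size of the called changes was 0.30 on the log2 scale, and 32 genes (0.276%), 16 higher and 16 lower, changed by 2-fold or more. The median over all genes tested was -0.01. Called genes had the same direction at all 3 time labels in 452 of 454 cases for the higher and 403 of 403 for the lower, where 22% of all tested genes were higher and 25.3% lower at all 3. The test blocks on the time label and so favours differences that repeat over the labels. This agreement therefore follows in part from the calling. The libraries of the 2 lines did not overlap for 202 of the genes called higher and 159 called lower. Over all genes tested line 7 lay above line 6 without overlap in 5.05% and below it in 5.42%, 10.5% together. In the same fit the time label called more genes, 2667 at t6 over t0 (23%) and 3339 at t48 over t0 (28.8%). Of the genes called between the lines 62.7% were also called for t6 or t48, against 40.7% of all genes tested. With effective transcript lengths as offsets edgeR called 159 genes, 148 of them shared with the 857, and without the time label as a replicate block it called none (512 genes at an unadjusted p below 0.05). The count fell to 441 without the line 6 t6 library, to 477 without the line 6 t48 library, to 515 without the line 7 t48 library and to 530 without the line 7 t6 library. DESeq2 called 482 of the 11588 genes. In both directions together, edgeR gave 2838 of the 11588 genes an unadjusted p below 0.05 with RLE size factors, and 2225 with length offsets. Counts of single lists below, by DESeq2 or at an unadjusted p below 0.05, are to be read against these counts over all genes.

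The 12 largest increases and 12 largest decreases described here were chosen among genes whose libraries do not overlap between the lines, so their separation is given by the choice. Higher in line 7 were the growth factor gene Ptn, the membrane protein gene Emb and the scaffold gene Iqgap2. Ptn, the heparin-binding growth factor pleiotrophin, had 274, 286 and 320.4 CPM in line 7, against 140.3, 147 and 164 CPM in line 6 at t0, t6 and t48 (log2 fold change 0.96, SE 0.04, edgeR adjusted p = 2.64e-06). Ptn differed by 0.96, 0.95 and 0.96 on the log2 scale at the 3 labels. Emb, embigin, a partner of monocarboxylate transporters, had 48.2, 67.7 and 44.2 CPM in line 7, against 23.6, 37.0 and 21.6 CPM in line 6 (log2 fold change 0.97, SE 0.06, edgeR adjusted p = 2.18e-05). Iqgap2, a scaffold of the actin cytoskeleton, had 15.1, 28.1 and 31.4 CPM in line 7, against 3.28, 10.3 and 14.7 CPM in line 6 (log2 fold change 1.49, SE 0.20, edgeR adjusted p = 0.0224). Iqgap2 increased with the time label in both lines, and its line difference was widest at t0 (2.05, 1.40 and 1.07 on the log2 scale at t0, t6 and t48).

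The other large increases included a kinase inhibitor and a matrix proteoglycan. Camk2n1, an inhibitor of the calcium-calmodulin kinase II, averaged 5.72 ± 0.911 CPM in line 7 and 3.08 ± 0.472 CPM in line 6 (SD, n = 3 each, log2 fold change 0.89, SE 0.16, edgeR adjusted p = 0.00945). Omd, osteomodulin, a small leucine-rich proteoglycan of the matrix, averaged 28.3 ± 3.77 CPM in line 7 and 17.5 ± 4.55 CPM in line 6 (log2 fold change 0.72, SE 0.09, edgeR adjusted p = 0.00141). Mdfi, an inhibitor of myogenic transcription factors, averaged 2.89 ± 0.352 CPM in line 7 and 1.65 ± 0.324 CPM in line 6 (log2 fold change 0.81, SE 0.21, edgeR adjusted p = 0.0405). Also among the 12 were Dcn (0.78) and the interferon-inducible genes Ifit1, Ifit3, Ifi44 and Gbp7, described with their groups. SDs are over the 3 time labels of a line and so contain the differences between labels. Iqgap2 lost its call without either t6 library (edgeR adjusted p up to 0.174). Camk2n1 lost its call without the line 6 t6 library (edgeR adjusted p up to 0.05). Mdfi lost its call without any t6 or t48 library (edgeR adjusted p up to 0.156). Length offsets gave an adjusted p of 0.0630 for Camk2n1, 0.154 for Mdfi and 0.0551 for Omd, DESeq2 gave 0.270 for Mdfi, the filterByExpr filter 0.0532 for Mdfi, and no filter on low counts gave 0.114 for Iqgap2.

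**Figure D2:**
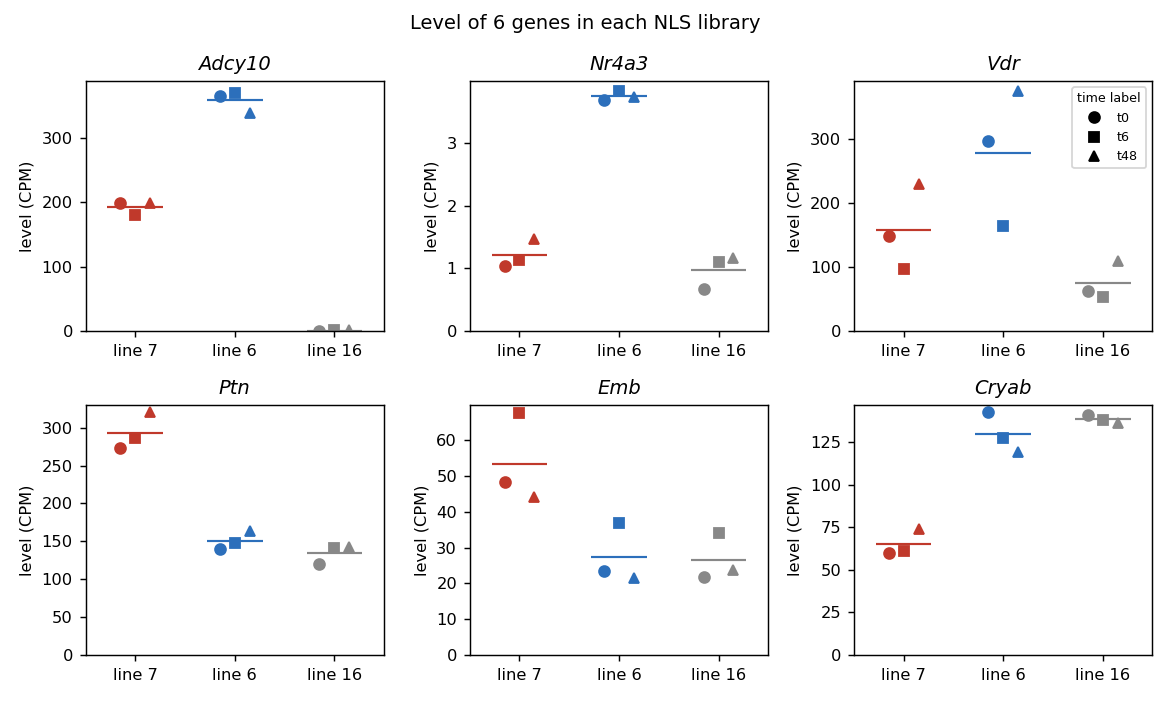
Level in CPM (vertical axes, each from 0) of Adcy10, Nr4a3, Vdr, Ptn, Emb and Cryab in lines 7 (red), 6 (blue) and 16 (grey); circles, squares and triangles are the t0, t6 and t48 libraries and bars the mean of 3. Lines 7 and 6 overlap in Vdr and not in the other 5 genes, which were chosen among genes without overlap.

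Among the largest decreases were a CREB target, a small heat shock protein and a plakophilin of desmosomes. Nr4a3, an orphan nuclear receptor of the Nr4a family, had 1.04, 1.13 and 1.47 CPM in line 7, against 3.68, 3.83 and 3.72 CPM in line 6 at t0, t6 and t48 (log2 fold change -1.63, SE 0.20, edgeR adjusted p = 0.00141). Cryab, which encodes alpha-B crystallin, a small heat shock chaperone, had 59.7, 61.0 and 73.9 CPM in line 7, against 143, 128 and 119 CPM in line 6 (log2 fold change -1.0, SE 0.11, edgeR adjusted p = 0.00677). Uchl1, a ubiquitin hydrolase, had 10.9, 13.6 and 10.8 CPM in line 7, against 24.6, 24.5 and 21.5 CPM in line 6 (log2 fold change -1.01, SE 0.09, edgeR adjusted p = 0.000175). Pkp1, plakophilin 1 of desmosomes, had 54.7, 70.8 and 47.8 CPM in line 7, against 94.7, 108 and 74.4 CPM in line 6 (log2 fold change -0.68, SE 0.06, edgeR adjusted p = 0.000114). Krt80, a keratin of epithelia, averaged 7.90 ± 2.83 CPM in line 7 and 12.9 ± 1.98 CPM in line 6 (log2 fold change -0.74, SE 0.11, edgeR adjusted p = 0.00471).

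Ctsw, the lysosomal protease cathepsin W, averaged 1.25 ± 0.250 CPM in line 7 and 3.23 ± 0.753 CPM in line 6 (log2 fold change -1.36, SE 0.20, edgeR adjusted p = 0.00354), and Wnt1, a Wnt ligand, averaged 1.63 ± 0.558 CPM in line 7 and 3.16 ± 0.652 CPM in line 6 (log2 fold change -0.97, SE 0.20, edgeR adjusted p = 0.0168). Both lay at low counts, with a mean log2 CPM of 1.24 for Ctsw and 1.34 for Wnt1, as did Nr4a3 above, with 1.38. Kalrn, a guanine nucleotide exchange factor, averaged 39.7 ± 9.76 CPM in line 7 and 60.1 ± 11.2 CPM in line 6 (log2 fold change -0.61, SE 0.07, edgeR adjusted p = 0.000662), and Mal, a membrane protein of lipid rafts, 21 ± 3.15 CPM in line 7 and 32.1 ± 2.53 CPM in line 6 (log2 fold change -0.62, SE 0.08, edgeR adjusted p = 0.00168). Cavin4, a caveola protein known from muscle (log2 fold change -0.71, SE 0.13, edgeR adjusted p = 0.0266), and Klf5, a Krüppel-like factor (log2 fold change -0.65, SE 0.14, edgeR adjusted p = 0.0286), had narrower differences at t48, with -0.86, -0.96 and -0.30 for Cavin4 and -0.83, -0.88 and -0.17 for Klf5 at t0, t6 and t48. Whether a difference changes with the time label could not be tested with 1 library at each line and label. Cryab and Wnt1 lost their calls without either t6 library (edgeR adjusted p up to 0.113 and 0.0646). Cavin4 lost its call without any t0 or t6 library (edgeR adjusted p up to 0.404). Klf5 lost its call without either t6 library or the line 7 t0 library (edgeR adjusted p up to 0.136). The adjusted p with length offsets was 0.116 for Nr4a3, 0.0743 for Wnt1, 0.0650 for Cavin4 and 0.0912 for Klf5, with DESeq2 0.121 for Wnt1 and in the fit of 9 libraries 0.0984 for Cavin4.

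**Figure D3:**
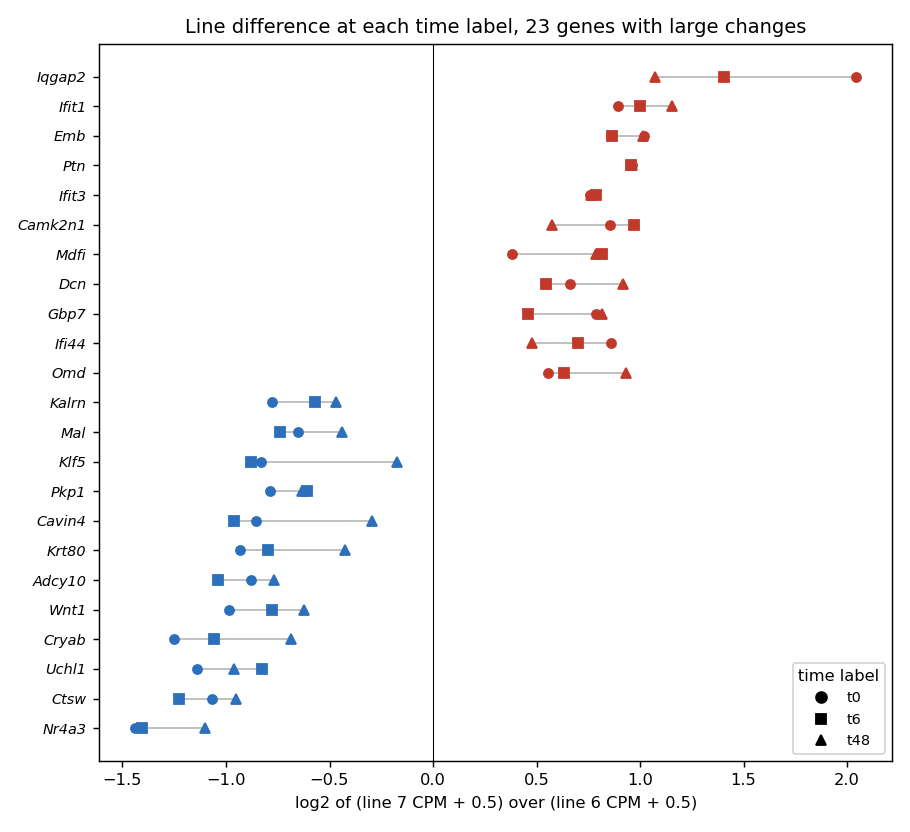
Difference between lines 7 and 6 at t0 (circles), t6 (squares) and t48 (triangles) as log2 of CPM plus 0.5 (horizontal axis) for 11 of the 12 largest increases (red) and the 12 largest decreases (blue). All 69 differences have the sign of the gene's fold change, which the choice of genes without overlap fixes, and Ptn differs least between labels.

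Targets of cAMP and CREB were split between higher and lower. Of 23 tested, 4 were higher and 4 lower in line 7, and the median log2 fold change was -0.12, against 454 higher, 403 lower and a median of -0.01 over all 11588 genes. Lower were Nr4a3, given above, and Sik1, a salt-inducible kinase that holds back CREB coactivators, with 23.8, 20.8 and 31.2 CPM in line 7, against 40.6, 28.1 and 45.5 CPM in line 6 (log2 fold change -0.59, SE 0.08, edgeR adjusted p = 0.00182). Nr4a2, another Nr4a receptor, had 4.55, 6.59 and 3.47 CPM in line 7, against 6.38, 9.48 and 4.71 CPM in line 6 (log2 fold change -0.49, SE 0.13, edgeR adjusted p = 0.0409). Sik1 and Nr4a2 were lower in line 7 at each label while their ranges over the labels overlapped. Per1, a clock repressor induced by CREB, was the other called lower (log2 fold change -0.32, SE 0.08, edgeR adjusted p = 0.0452).

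Higher in line 7 were 2 phosphodiesterase genes of the list, a growth factor and an early growth response factor. Pde4b, a cAMP phosphodiesterase, had 17.6, 18.7 and 26.8 CPM in line 7, against 11.7, 16.1 and 19.8 CPM in line 6 at t0, t6 and t48 (log2 fold change 0.41, SE 0.09, edgeR adjusted p = 0.0196), and line 16 had 1.68, 4.20 and 5.78 CPM. Pde3b, a phosphodiesterase inhibited by cyclic GMP, averaged 79.3 ± 14.2 CPM in line 7 and 68.2 ± 14.3 CPM in line 6 (log2 fold change 0.22, SE 0.05, edgeR adjusted p = 0.0318). Areg, amphiregulin, a ligand of the EGF receptor, had 9.15, 19.3 and 2.89 CPM in line 7, against 5.01, 15.4 and 2.26 CPM in line 6 (log2 fold change 0.52, SE 0.13, edgeR adjusted p = 0.0370). Levels of Areg moved more between labels than between lines. Egr1 completed the 4 (log2 fold change 0.22, SE 0.06, edgeR adjusted p = 0.0425). Nr4a1 had 3.60, 7.78 and 8.77 CPM in line 7, against 13.6, 12.9 and 11.3 CPM in line 6 and was not called (log2 fold change -0.95, SE 0.38, edgeR adjusted p = 0.277), although its line 7 libraries lay below all line 6 libraries. Crem, summed over all its transcripts and so not specific to its inducible repressor form, was not called (log2 fold change -0.12, SE 0.19, edgeR adjusted p = 0.753).

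Calls of this list depended on the tool and on single libraries. DESeq2 called none of them higher and 3 lower, where 5 were higher and 6 lower at an unadjusted p below 0.05 with edgeR. Nr4a2 lost its call without any 1 of the 6 libraries (edgeR adjusted p up to 0.170). Pde4b lost its call without either t48 library (edgeR adjusted p up to 0.0735). Pde3b lost its call without any t6 or t48 library or the line 7 t0 library (edgeR adjusted p up to 0.0793). Areg lost its call without any t0 or t6 library (edgeR adjusted p up to 0.152). In the fit of 9 libraries Sik1 lost its call without the line 7 t0 library (edgeR adjusted p up to 0.0580). Adjusted p with length offsets was 0.116 for Nr4a3, 0.116 for Nr4a2, 0.105 for Pde4b, 0.110 for Pde3b and 0.137 for Areg, with DESeq2 0.317 for Nr4a2, 0.0713 for Pde4b, 0.0942 for Pde3b and 0.157 for Areg, and in the fit of 9 libraries 0.129 for Pde4b.

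The promoters of 3 called genes of the CREB list are printed as examples of the forms of the cAMP response element. Nr4a3 and Nr4a2 were called lower and Areg higher. Windows of the other called genes of the list are not printed. Whether the form of the element goes with the direction of the line difference in this list was not tested. The windows run from 250 bases before to 50 bases after the RefSeq start (GRCm38.p6), capitals mark the short site TGACG or its complement CGTCA, and the 8-base full element TGACGTCA holds both. Nr4a3 lies at chr4:48045055-48045354 on the plus strand, Nr4a2 at chr2:57123954-57124253 on the minus strand and Areg at chr5:91139349-91139648 on the plus strand.
Nr4a3: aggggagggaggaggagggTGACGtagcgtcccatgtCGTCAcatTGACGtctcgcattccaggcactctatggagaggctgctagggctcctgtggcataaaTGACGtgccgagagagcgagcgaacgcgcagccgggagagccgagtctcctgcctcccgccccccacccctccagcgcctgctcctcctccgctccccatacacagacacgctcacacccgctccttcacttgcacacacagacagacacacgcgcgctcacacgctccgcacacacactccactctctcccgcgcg
Nr4a2: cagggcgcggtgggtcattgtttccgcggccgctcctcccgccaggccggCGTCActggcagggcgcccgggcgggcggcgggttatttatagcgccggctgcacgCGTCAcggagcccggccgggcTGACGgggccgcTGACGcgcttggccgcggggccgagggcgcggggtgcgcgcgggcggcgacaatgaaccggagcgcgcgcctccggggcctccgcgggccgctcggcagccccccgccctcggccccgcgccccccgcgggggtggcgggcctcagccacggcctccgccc
Areg: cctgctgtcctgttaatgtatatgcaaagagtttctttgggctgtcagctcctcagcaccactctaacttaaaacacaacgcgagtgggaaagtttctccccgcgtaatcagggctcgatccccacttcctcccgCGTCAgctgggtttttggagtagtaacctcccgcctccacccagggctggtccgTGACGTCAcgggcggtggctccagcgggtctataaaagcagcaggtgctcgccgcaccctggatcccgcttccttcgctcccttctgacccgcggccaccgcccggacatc

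Nr4a3 and Nr4a2 hold 4 short sites each and no full element, and Areg holds 1 full element and a further short site. Sik1 had no entry in the table. The full element was in the window of 14 of 345 genes called higher (4.06%), 7 of 296 called lower (2.36%) and 333 of 8928 tested genes with a window (3.73%). The short site, searched as TGACG and CGTCA on both strands, was in 33.3%, 38.2% and 36.7% of the same sets. Among cAMP and CREB targets 3 of 16 windows held the full element (18.8%) and 87.5% a short site, in a list that was drawn up from known CREB targets. A match describes the letters of a window and is no evidence of binding.

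Outside the CREB list, genes that make, bind or degrade cAMP were called about as often as other genes. The called phosphodiesterases Pde4b and Pde3b are counted with the CREB targets above and not here. Of 21 tested genes of the cAMP machinery (adenylyl cyclases, protein kinase A subunits, exchange factors, CREB and its coactivators) edgeR called Adcy10 alone, 1 lower and none higher (4.76% called, against 7.40% of all genes tested), with 5 higher and 1 lower at an unadjusted p below 0.05 and the same single call by DESeq2. The list's median was 0.01. Among 9 phosphodiesterases outside the CREB list, 1 was lower and none higher (11.1% called). Pde8a, a cAMP phosphodiesterase, had 164, 211 and 205 CPM in line 7, against 186, 262 and 235 CPM in line 6 (log2 fold change -0.23, SE 0.05, edgeR adjusted p = 0.0166). Values of genes that were not called included -0.09 for Prkaca, 0.14 for Creb1 and 0.31 for Rapgef3 (log2 fold changes, SE 0.05, 0.06 and 0.13). Pde8a lost its call without any t6 or t48 library (edgeR adjusted p up to 0.0829). With length offsets Pde8a had an edgeR adjusted p of 0.0791.

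Because bicarbonate activates sAC, genes of pH and bicarbonate transport were set beside them. Of 11 tested 2 were higher and 2 lower (36.4% called, against 7.40% of all genes tested). Slc4a7, a sodium bicarbonate cotransporter, had 98.0, 93.0 and 97.3 CPM in line 7, against 74.4, 76.2 and 73.3 CPM in line 6 (log2 fold change 0.37, SE 0.05, edgeR adjusted p = 0.00274), with no overlap between the lines. Slc26a2, a sulfate transporter, had 154, 102 and 149 CPM in line 7, against 110.0, 93.5 and 110.4 CPM in line 6 (log2 fold change 0.35, SE 0.07, edgeR adjusted p = 0.0122). Among the lower was Car6, a secreted carbonic anhydrase, with 14.9, 5.82 and 5.70 CPM in line 7, against 24.9, 8.82 and 8.25 CPM in line 6 (log2 fold change -0.64, SE 0.09, edgeR adjusted p = 0.00312). The libraries of the lines overlapped for Car6 and Slc26a2. Slc26a2 lost its call without either t48 library (edgeR adjusted p up to 0.0592). The adjusted p with length offsets was 0.0682 for Slc26a2 and 0.0544 for Car6.

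The called interferon-stimulated genes were all higher in line 7. Of 23 tested, 6 were higher (26.1%, against 3.92% of all genes tested) and none lower. The median log2 fold change was 0.28 against -0.01 over all genes tested, and 17 were higher at all 3 time labels, as were 22% of all genes. DESeq2 called 4 higher and none lower, and edgeR had 12 higher and none lower at an unadjusted p below 0.05. Ifit1, which binds viral RNA, had 8.89, 10.4 and 6.28 CPM in line 7, against 4.56, 4.95 and 2.55 CPM in line 6 at t0, t6 and t48 (log2 fold change 1.10, SE 0.13, edgeR adjusted p = 0.000986). Dhx58, a helicase of the RNA sensing pathway, had 14.8, 10.9 and 7.43 CPM in line 7, against 7.93, 6.77 and 5.19 CPM in line 6 (log2 fold change 0.72, SE 0.11, edgeR adjusted p = 0.00438), and Ifi44 had 7.07, 7.21 and 8.68 CPM in line 7, against 3.68, 4.25 and 6.08 CPM in line 6 (log2 fold change 0.73, SE 0.13, edgeR adjusted p = 0.0100). Ifit3 averaged 3.27 ± 0.526 CPM in line 7 and 1.71 ± 0.306 CPM in line 6 (log2 fold change 0.93, SE 0.19, edgeR adjusted p = 0.0149). Oasl2 (log2 fold change 0.62, SE 0.12) and Gbp3 (0.43, SE 0.09) were the other list members called higher. Gbp7, a guanylate-binding protein gene among the largest increases, is outside the list. It had 11.7, 8.91 and 8.01 CPM in line 7, against 6.56, 6.35 and 4.34 CPM in line 6 (log2 fold change 0.73, SE 0.12, edgeR adjusted p = 0.00616). Signalling genes of the pathway were among those not called, with log2 fold changes of 0.23 (SE 0.08) for Stat2 and 0.40 (SE 0.22) for Irf7. Members of the Ifit, Oas and Gbp families have near-identical copies, so their reads may be divided unevenly. Ifit3 lost its call without either t6 library (edgeR adjusted p up to 0.0640). With length offsets the adjusted p was 0.102 for Dhx58, 0.102 for Ifi44 and 0.0704 for Ifit3, and DESeq2 gave 0.120 for Ifit3.

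Of 16 antigen presentation genes edgeR called none higher and 1 lower (2 higher and 1 lower at an unadjusted p below 0.05, and 1 lower by DESeq2). The called share was 6.25%, against 7.40% of all genes tested. B2m, the light chain of class I molecules, had 338, 419 and 445 CPM in line 7, against 387, 483 and 493 CPM in line 6 (log2 fold change -0.18, SE 0.04, edgeR adjusted p = 0.0348). B2m lost its call without any t6 or t48 library (edgeR adjusted p up to 0.154). With length offsets the adjusted p was 0.0709 for B2m.

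Chemokine and cytokine genes changed in both directions, with 4 higher and 3 lower of 12 tested (5 higher and 3 lower at an unadjusted p below 0.05, and 4 higher and 2 lower by DESeq2). Calls made up 58.3% of the list, against 7.40% of all genes tested. Il1rl1, the receptor of interleukin 33, had 3259.7, 2617 and 2585 CPM in line 7, against 2278, 2038 and 1717 CPM in line 6 (log2 fold change 0.49, SE 0.06, edgeR adjusted p = 0.000868). Ccl2, a monocyte chemokine, had 78.8, 80.4 and 74.4 CPM in line 7, against 57.6, 59.2 and 58.8 CPM in line 6 (log2 fold change 0.41, SE 0.05, edgeR adjusted p = 0.00141). Every line 7 library lay above all line 6 libraries in these 2 genes. Ccl5 had 14.2, 13.4 and 8.06 CPM in line 7, against 9.97, 6.02 and 3.54 CPM in line 6 (log2 fold change 0.91, SE 0.14, edgeR adjusted p = 0.00491), and Ccl7 was the remaining one (log2 fold change 0.28, SE 0.05, edgeR adjusted p = 0.0101). Lower were Lif, leukemia inhibitory factor, with 17.6, 24.8 and 17 CPM in line 7, against 26.9, 40.2 and 23.5 CPM in line 6 (log2 fold change -0.60, SE 0.08, edgeR adjusted p = 0.00168), Cxcl12 (log2 fold change -0.29, SE 0.06, edgeR adjusted p = 0.0165) and Cxcl1, a neutrophil chemokine (log2 fold change -0.35, SE 0.09, edgeR adjusted p = 0.0434). Line 16 had 1667, 1393 and 1150.3 CPM of Il1rl1 and 10.9, 7.04 and 7.00 CPM of Cxcl1, below both lines in each. Cxcl12 lost its call without either t48 library (edgeR adjusted p up to 0.159). Cxcl1 lost its call without any 1 of the 6 libraries (edgeR adjusted p up to 0.214). In the fit of 9 libraries Ccl5 lost its call without the line 7 t0 library or the line 7 t6 library or the line 6 t48 library (edgeR adjusted p up to 0.107). The adjusted p with length offsets was 0.117 for Lif, 0.0815 for Cxcl12 and 0.0897 for Cxcl1, with DESeq2 0.156 for Cxcl1, with filterByExpr 0.0522 for Cxcl1 and in the fit of 9 libraries 0.0703 for Cxcl1.

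The called genes of mitosis were higher in line 7 by small amounts. Of 22 tested genes of G2/M and mitosis 7 were higher (31.8%, against 3.92% of all genes tested), none was lower and 15 were not called. The median log2 fold change was 0.15, and 19 were higher at all 3 time labels, as were 22% of all genes. DESeq2 called 4 higher and none lower, and edgeR had 16 higher and none lower at an unadjusted p below 0.05. Cenpf, a kinetochore protein, had 126, 139 and 120.4 CPM in line 7, against 87.6, 115 and 90.8 CPM in line 6 at t0, t6 and t48 (log2 fold change 0.40, SE 0.06, edgeR adjusted p = 0.00248). Cenpe, the kinetochore motor, had 114, 132 and 107 CPM in line 7, against 78.2, 112 and 86.5 CPM in line 6 (log2 fold change 0.36, SE 0.06, edgeR adjusted p = 0.00769). Dlgap5, a spindle protein, had 153, 151 and 155 CPM in line 7, against 127, 131 and 134 CPM in line 6 (log2 fold change 0.23, SE 0.05, edgeR adjusted p = 0.0166). Cenpf and Dlgap5 did not overlap between the lines, and the changes were under 1.5-fold in all 7. Mki67, the Ki-67 proliferation marker, was also called (log2 fold change 0.33, SE 0.08, edgeR adjusted p = 0.0430). Cdk1 (0.03, SE 0.05) and Plk1 (0.11, SE 0.05) were not. Dlgap5 lost its call without either t48 library (edgeR adjusted p up to 0.0845). The adjusted p with length offsets was 0.0898 for Cenpf and 0.0897 for Cenpe.

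Of 24 genes of G1/S and DNA replication only Pola1, the catalytic subunit of DNA polymerase alpha, was called, with 89.4, 109.8 and 75.4 CPM in line 7, against 66.9, 88.8 and 64.6 CPM in line 6 (log2 fold change 0.32, SE 0.05, edgeR adjusted p = 0.00786), and the list's median was 0.09. Pola1 alone was 4.17% of the list, against 7.40% of all genes tested. At an unadjusted p below 0.05 8 of the list were higher and none lower, DESeq2 called 1 higher, and 11 were higher and 2 lower at all 3 time labels. Among 10 CDK inhibitors and D cyclins 1 was higher and 1 lower (20% called). Cdkn1a, the p21 inhibitor, had 22.1, 25.1 and 32.3 CPM in line 7, against 38.6, 39.6 and 37.9 CPM in line 6 (log2 fold change -0.56, SE 0.10, edgeR adjusted p = 0.0126), with no overlap and the narrowest difference at t48 (-0.79, -0.65 and -0.23). Ccnd1, cyclin D1, averaged 848 ± 173 CPM in line 7 and 737 ± 163 CPM in line 6 (log2 fold change 0.21, SE 0.05, edgeR adjusted p = 0.0229). None of 14 p53 targets was called by edgeR or DESeq2 (none higher and 4 lower at an unadjusted p below 0.05 with edgeR), and Aen came nearest (log2 fold change -0.19, edgeR adjusted p = 0.0522). Ccnd1 lost its call without either t48 library or the line 6 t6 library (edgeR adjusted p up to 0.119). Cdkn1a lost its call without either t6 library (edgeR adjusted p up to 0.0883). The adjusted p with length offsets was 0.0669 for Pola1, 0.154 for Ccnd1 and 0.0645 for Cdkn1a.

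**Figure D4:**
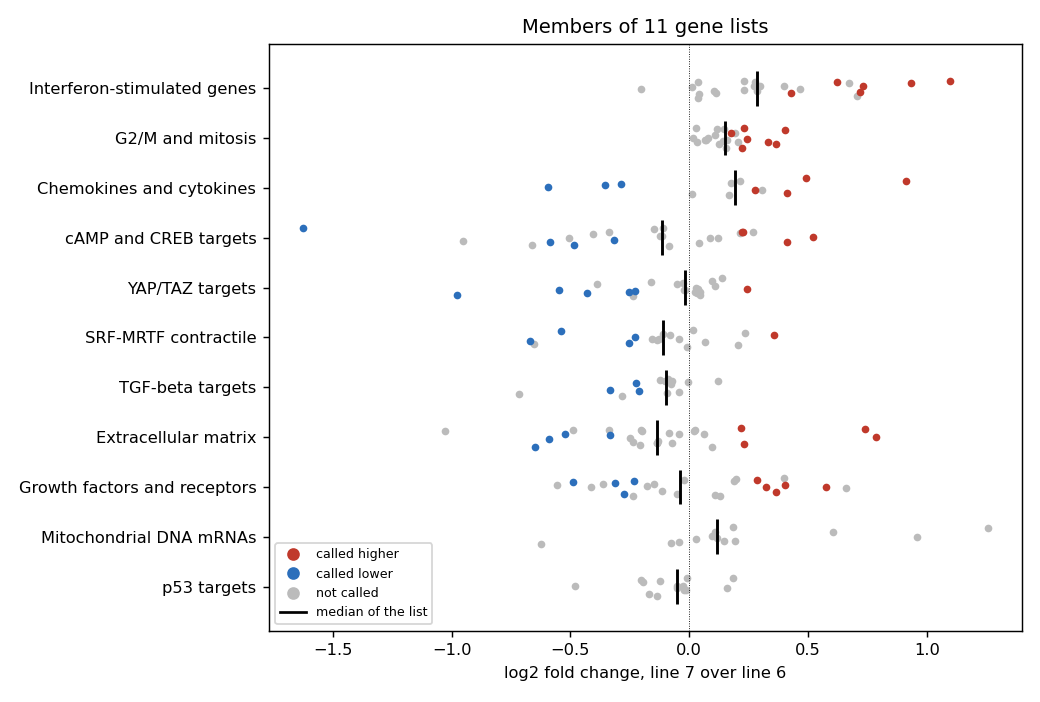
Log2 fold change of line 7 over line 6 (horizontal axis) for the tested members of 11 gene lists (rows), with called members in red (higher) or blue (lower), the rest in grey and a black bar at each median. The medians run from 0.28 for interferon-stimulated genes to -0.13 for the extracellular matrix, and the called members of the cAMP, matrix and growth factor lists lie on both sides of 0.

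Targets of YAP and TAZ, the coactivators held in check by the Hippo kinases, gave 5 lower and 1 higher of 22, with a median of -0.02 (7 lower and 2 higher at an unadjusted p below 0.05, and 5 lower and 1 higher by DESeq2). The called share was 27.3%, against 7.40% of all genes tested. Ccn2, connective tissue growth factor, had 117, 88.8 and 299 CPM in line 7, against 185, 138 and 386 CPM in line 6 at t0, t6 and t48 (log2 fold change -0.55, SE 0.06, edgeR adjusted p = 0.000862). Ankrd1, a nuclear ankyrin repeat protein, had 12.2, 3.55 and 25.6 CPM in line 7, against 32.4, 6.72 and 39.3 CPM in line 6 (log2 fold change -0.98, SE 0.15, edgeR adjusted p = 0.0120). Ajuba, a LIM protein that binds the Hippo kinases LATS, had 65.5, 66.0 and 71.5 CPM in line 7, against 80.9, 81.0 and 80.4 CPM in line 6 (log2 fold change -0.26, SE 0.05, edgeR adjusted p = 0.0168). Ajuba did not overlap between the lines, while Ccn2 and Ankrd1 differed between labels more than between lines. Tgfb2 (-0.43, SE 0.09) and Fstl1 (-0.23, SE 0.05) were the other 2 lower. Tead1, the DNA-binding partner of YAP, was higher, with 319, 399 and 396 CPM in line 7, against 253, 373 and 321 CPM in line 6 (log2 fold change 0.24, SE 0.05, edgeR adjusted p = 0.0225). Ccn1, the close relative of Ccn2, was not called, with 179, 171 and 226 CPM in line 7, against 162, 171 and 187 CPM in line 6 (log2 fold change 0.14, SE 0.06, edgeR adjusted p = 0.165). Ankrd1 and Ajuba lost their calls without either t6 library (edgeR adjusted p up to 0.124 and 0.0721). Tead1 lost its call without either t48 library (edgeR adjusted p up to 0.122). In the fit of 9 libraries Ccn2 lost its call without either t0 library or the line 6 t48 library or the line 6 t6 library (edgeR adjusted p up to 0.139). With length offsets the adjusted p was 0.0542 for Ankrd1, 0.0813 for Ajuba and 0.0542 for Tead1, and in the fit of 9 libraries 0.0940 for Ankrd1.

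Contractile genes driven by SRF and its MRTF coactivators showed 4 lower and 1 higher of 17, with a median of -0.11 (8 lower and 3 higher at an unadjusted p below 0.05, and 5 lower and 2 higher by DESeq2). Calls made up 29.4% of this list, against 7.40% of all genes tested. Actg2, a smooth muscle actin, had 11.8, 31.5 and 94.7 CPM in line 7, against 18.3, 48.6 and 126 CPM in line 6 (log2 fold change -0.54, SE 0.06, edgeR adjusted p = 0.00107). Cnn1, calponin, had 5.34, 8.86 and 34.9 CPM in line 7, against 11.8, 14.3 and 45.1 CPM in line 6 (log2 fold change -0.67, SE 0.13, edgeR adjusted p = 0.0170), and Actn1, alpha-actinin, had 537, 647 and 597 CPM in line 7, against 669, 748 and 705 CPM in line 6 (log2 fold change -0.26, SE 0.05, edgeR adjusted p = 0.0103). Actg2 and Cnn1 increased with the time label in both lines and were lower in line 7 at each. Tpm1 was also lower (log2 fold change -0.23, SE 0.05), and Mylk, myosin light chain kinase, was higher (log2 fold change 0.36, SE 0.08, edgeR adjusted p = 0.0284). TGF-beta targets had 21.4% called, also against 7.40%. Of 14 such targets 3 were lower and none higher (5 lower at an unadjusted p below 0.05 and 5 lower by DESeq2), with a median of -0.10. They were Bhlhe40 (log2 fold change -0.21, SE 0.05, edgeR adjusted p = 0.0232), Pmepa1 (log2 fold change -0.33, SE 0.08, edgeR adjusted p = 0.0336) and Ltbp1, a latent TGF-beta binding protein (log2 fold change -0.23, SE 0.06, edgeR adjusted p = 0.0371). Actn1 and Mylk lost their calls without either t48 library (edgeR adjusted p up to 0.0585 and 0.113). Cnn1, Pmepa1 and Ltbp1 lost their calls without either t6 library (edgeR adjusted p up to 0.128, 0.139 and 0.158). Bhlhe40 lost its call without any t6 or t48 library (edgeR adjusted p up to 0.0947). With length offsets the adjusted p was 0.125 for Mylk, 0.102 for Bhlhe40, 0.304 for Pmepa1 and 0.136 for Ltbp1, and in the fit of 9 libraries 0.101 for Pmepa1.

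Matrix genes gave 4 higher and 4 lower of 26 (30.8% called, against 7.40% of all genes tested), with a median of -0.13. At an unadjusted p below 0.05 4 were higher and 13 lower, DESeq2 called 4 higher and 7 lower, and 3 were higher and 12 lower at all 3 time labels. Lox, the collagen cross-linking enzyme lysyl oxidase, had 977, 626 and 1091 CPM in line 7, against 1562, 905 and 1401 CPM in line 6 at t0, t6 and t48 (log2 fold change -0.52, SE 0.06, edgeR adjusted p = 0.000986). Col8a1, a collagen of basement membranes, had 72.6, 25.1 and 44.2 CPM in line 7, against 111, 41.6 and 60.6 CPM in line 6 (log2 fold change -0.59, SE 0.06, edgeR adjusted p = 0.000584), and Postn, periostin, had 93.2, 27.4 and 452 CPM in line 7, against 166, 47.3 and 594 CPM in line 6 (log2 fold change -0.65, SE 0.09, edgeR adjusted p = 0.00623). All 3 were lower in line 7 at every label, and their ranges over the labels overlapped. Thbs1 was the remaining one lower (log2 fold change -0.33, SE 0.06). On the higher side Dcn, the proteoglycan decorin, had 7.03, 5.20 and 6.50 CPM in line 7, against 4.25, 3.41 and 3.21 CPM in line 6 (log2 fold change 0.78, SE 0.15, edgeR adjusted p = 0.0115). Ccn5, a matricellular relative of Ccn2, had 29.4, 2.21 and 27.9 CPM in line 7, against 17.2, 2.29 and 14.7 CPM in line 6 (log2 fold change 0.74, SE 0.13, edgeR adjusted p = 0.0102) and did not differ upward at t6, where the log2 difference was -0.04. Col6a1 (log2 fold change 0.22, SE 0.05, edgeR adjusted p = 0.0371) and Col6a2 (log2 fold change 0.23, SE 0.06), chains of collagen VI, were the others. Postn lost its call without either t6 library (edgeR adjusted p up to 0.0627). Ccn5 and Dcn lost their calls without either t48 library (edgeR adjusted p up to 0.0608 and 0.0552). Col6a1 lost its call without either t48 library or the line 6 t6 library (edgeR adjusted p up to 0.276). In the fit of 9 libraries Lox lost its call without the line 6 t0 library (edgeR adjusted p up to 0.0533). The adjusted p with length offsets was 0.0594 for Postn, 0.0650 for Dcn and 0.1 for Col6a1.

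Of 24 growth factor and receptor genes tested, 5 were higher, 3 of them receptors, and 4 were lower, all of them ligands (6 higher and 5 lower at an unadjusted p below 0.05, and 5 higher and 2 lower by DESeq2). The called share was 37.5%, against 7.40% of all genes tested. Pdgfra, a receptor of platelet-derived growth factors, had 255, 248 and 205 CPM in line 7, against 171, 200.1 and 165 CPM in line 6 (log2 fold change 0.40, SE 0.06, edgeR adjusted p = 0.00345), and Fgfr1 had 474, 499.6 and 438 CPM in line 7, against 365, 390.4 and 373 CPM in line 6 (log2 fold change 0.32, SE 0.05, edgeR adjusted p = 0.00382). Neither overlapped between the lines. Igfbp3, an IGF binding protein, averaged 589 ± 233 CPM in line 7 and 489 ± 216 CPM in line 6 (log2 fold change 0.28, SE 0.05, edgeR adjusted p = 0.00647). Kitl, the ligand of Kit (0.57, SE 0.09), and Met, the HGF receptor (0.36, SE 0.07), were also higher. Lower were the ligands Fgf7, with 238, 324 and 255 CPM in line 7, against 286, 387 and 314 CPM in line 6 (log2 fold change -0.27, SE 0.04, edgeR adjusted p = 0.00578), Pdgfb (log2 fold change -0.49, SE 0.10, edgeR adjusted p = 0.0189), Vegfa (log2 fold change -0.23, SE 0.05, edgeR adjusted p = 0.0281) and Vegfc (log2 fold change -0.31, SE 0.08). Fgf7 and Vegfa lost their calls without either t48 library (edgeR adjusted p up to 0.0569 and 0.141). Pdgfb lost its call without either t6 library (edgeR adjusted p up to 0.0804). Length offsets gave an adjusted p of 0.0762 for Pdgfb and 0.0613 for Vegfa, DESeq2 0.0617 for Pdgfb and the fit of 9 libraries 0.208 for Pdgfb.

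A list of ERK feedback genes and AP-1 transcription factors gave 2 higher, Etv1 and Ereg, and none lower of 20 (7 higher and 1 lower at an unadjusted p below 0.05, and 1 higher by DESeq2). Calls made up 10% of it, against 7.40% of all genes tested. Etv1, an ETS factor known as an ERK effector and a melanoma oncogene, had 13.7, 19.7 and 2.71 CPM in line 7, against 4.39, 10.5 and 1.23 CPM in line 6 (log2 fold change 1.22, SE 0.15, edgeR adjusted p = 0.00138) and lay lowest at t48 in both lines. Ereg, epiregulin, averaged 10.0 ± 3.86 CPM in line 7 and 7.66 ± 2.97 CPM in line 6 (log2 fold change 0.39, SE 0.10, edgeR adjusted p = 0.0415). Dusp6 (0.24, SE 0.09) and Spry2 (0.06, SE 0.09), feedback inhibitors of the same pathway, were not called. Of 13 Wnt ligand and feedback genes Wnt5a was higher, with 18.3, 22.5 and 15 CPM in line 7, against 11.8, 17.3 and 10.5 CPM in line 6 (log2 fold change 0.51, SE 0.08, edgeR adjusted p = 0.00610), and Tcf7, a Wnt transcription factor, lower, with 84.6, 73.1 and 90.6 CPM in line 7, against 123, 100.2 and 118 CPM in line 6 (log2 fold change -0.46, SE 0.05, edgeR adjusted p = 0.000862). Tcf7 did not overlap between the lines, and Axin2, a common readout of the canonical pathway, was not called (-0.50, SE 0.19). The edgeR calls made up 15.4% of this list, against 7.40% of all genes tested. At an unadjusted p below 0.05 1 gene of this list was higher and 4 lower, and DESeq2 called 1 higher and 2 lower. Wnt1, lower in line 7 as given above, is outside the list. None of 8 BMP ligand and Id genes was called by edgeR or DESeq2 (3 higher and 2 lower at an unadjusted p below 0.05 with edgeR). The call of Ereg was lost by edgeR without any 1 of the 6 libraries (adjusted p up to 0.126) and with DESeq2 (0.324). With length offsets the adjusted p was 0.171 for Ereg and 0.0590 for Wnt5a.

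The vitamin D receptor gene Vdr and the arrestin-domain genes Txnip and Arrdc4 were lower in line 7. They were the 3 called of 15 tested arrestin and nuclear receptor genes (20%, against 7.40% of all genes tested). None was called higher and 12 were not called (3 higher and 4 lower at an unadjusted p below 0.05, and 3 lower by DESeq2). Vdr had 148, 97.4 and 231 CPM in line 7, against 297, 164 and 375 CPM in line 6 at t0, t6 and t48 (log2 fold change -0.82, SE 0.06, edgeR adjusted p = 6.89e-05), and line 16 had 62.3, 52.9 and 111 CPM. Line 7 was lower than line 6 at each label although the ranges overlapped. Txnip, an inhibitor of thioredoxin induced by glucose, had 28.4, 25.4 and 53.1 CPM in line 7, against 48.5, 43.1 and 77.6 CPM in line 6 (log2 fold change -0.69, SE 0.06, edgeR adjusted p = 0.000293), and its relative Arrdc4 had 6.59, 5.46 and 13 CPM in line 7, against 10.1, 9.10 and 18.5 CPM in line 6 (log2 fold change -0.60, SE 0.09, edgeR adjusted p = 0.00491). The call of Arrdc4 did not hold with length offsets (0.0645 for Arrdc4, edgeR adjusted p). In the fit of 9 libraries Vdr lost its call without the line 7 t0 library or the line 7 t6 library (edgeR adjusted p up to 0.104).

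Guidance genes gave 2 higher and 2 lower of 17 (5 higher and 3 lower at an unadjusted p below 0.05, and 1 in each direction by DESeq2). The called share was 23.5%, against 7.40% of all genes tested. Sema3a, a semaphorin, averaged 185 ± 30.0 CPM in line 7 and 152 ± 24.7 CPM in line 6 (log2 fold change 0.28, SE 0.05, edgeR adjusted p = 0.0122), and Slit2, the ligand of Robo receptors, 14.2 ± 2.36 CPM in line 7 and 10.8 ± 3.29 CPM in line 6 (log2 fold change 0.42, SE 0.10, edgeR adjusted p = 0.0310). Lower were Plxna2, a semaphorin receptor (log2 fold change -0.40, SE 0.07, edgeR adjusted p = 0.0101), and Robo2 (log2 fold change -0.32, SE 0.08, edgeR adjusted p = 0.0352). Arntl, the clock activator BMAL1, was the only one called of the 11 tested genes of the clock list (log2 fold change -0.33, SE 0.07, edgeR adjusted p = 0.0164), and Hoxb9 the only one of 7 Hox genes (log2 fold change -0.32, SE 0.06, edgeR adjusted p = 0.0102). These were 9.09% of the clock list and 14.3% of the Hox list. Per1, the clock repressor called lower above, is counted with the CREB targets and not in the clock list. Slit2 and Plxna2 lost their calls without either t48 library (edgeR adjusted p up to 0.156 and 0.0657). Robo2 lost its call without any t6 or t48 library (edgeR adjusted p up to 0.178). Arntl lost its call without the line 6 t6 library (edgeR adjusted p up to 0.0633). The adjusted p was 0.0955 for Sema3a, 0.205 for Slit2, 0.0971 for Plxna2, 0.226 for Robo2, 0.123 for Arntl and 0.0732 for Hoxb9 with length offsets and 0.152 for Slit2, 0.138 for Robo2 and 0.0532 for Arntl with DESeq2.

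The called members of 4 stress lists were lower in line 7, where 3.48% of all genes tested were called lower. Of 19 ATF4 targets 1 was lower (5.26%, near the share of all genes), the amino acid transporter chain Slc3a2 (log2 fold change -0.31, SE 0.07, edgeR adjusted p = 0.0312). Of 16 ER chaperone genes 2 were lower (12.5%), Herpud1 (log2 fold change -0.26, SE 0.05, edgeR adjusted p = 0.0191) and Dnajb11 (log2 fold change -0.19, SE 0.05, edgeR adjusted p = 0.0378). Heat shock genes had 2 of 11 lower (18.2%), Dnajb1 (log2 fold change -0.21, SE 0.05, edgeR adjusted p = 0.0356) and Hspa8 (log2 fold change -0.19, SE 0.05, edgeR adjusted p = 0.0475). Among 12 NRF2 targets 3 were lower (25%). DESeq2 called 1 lower in each of the 4 lists. At an unadjusted p below 0.05 edgeR had 4 ATF4 targets, 7 ER chaperone genes, 4 heat shock genes and 3 NRF2 targets lower. In the other direction were 1 ATF4 target and 1 NRF2 target. Hmox1, heme oxygenase 1, had 123, 138 and 126 CPM in line 7, against 153, 166 and 157 CPM in line 6 (log2 fold change -0.30, SE 0.05, edgeR adjusted p = 0.00486), with no overlap between the lines. Srxn1 (log2 fold change -0.17, SE 0.04, edgeR adjusted p = 0.0480) and Gclc (log2 fold change -0.18, SE 0.05, edgeR adjusted p = 0.0483) were nearer the threshold. Slc3a2 and Herpud1 lost their calls without either t6 library (edgeR adjusted p up to 0.122 and 0.0624). Dnajb11 lost its call without any t6 or t48 library or the line 6 t0 library (edgeR adjusted p up to 0.164). Dnajb1, Hspa8 and Srxn1 lost their calls without any 1 of the 6 libraries (edgeR adjusted p up to 0.181, 0.191 and 0.273). Gclc lost its call without any t6 or t48 library (edgeR adjusted p up to 0.379). Length offsets gave an adjusted p of 0.115 for Slc3a2, 0.0691 for Herpud1, 0.133 for Dnajb11, 0.143 for Dnajb1, 0.286 for Srxn1 and 0.132 for Gclc, DESeq2 0.106 for Dnajb11, 0.223 for Dnajb1, 0.108 for Srxn1 and 0.126 for Gclc, and RLE size factors 0.0512 for Hspa8, 0.0528 for Srxn1 and 0.0540 for Gclc. The filterByExpr filter gave 0.0532 for Hspa8 and 0.0551 for Srxn1 and for Gclc.

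Calls made up 20% of the fatty acid synthesis list, against 7.40% of all genes tested. Fatty acid synthesis had 3 higher and none lower of 15 (5 higher at an unadjusted p below 0.05, and 3 by DESeq2). They were Elovl6, a fatty acid elongase (log2 fold change 0.26, SE 0.06, edgeR adjusted p = 0.0224), Acsl4, an acyl-CoA synthetase (log2 fold change 0.25, SE 0.06, edgeR adjusted p = 0.0279), and Scd1, a desaturase (log2 fold change 0.18, SE 0.05, edgeR adjusted p = 0.0434). Sterol synthesis had Idi1 higher (log2 fold change 0.21, SE 0.05, edgeR adjusted p = 0.0371) and Ebp lower (log2 fold change -0.25, SE 0.06, edgeR adjusted p = 0.0366) of 20. Of 21 genes of glycolysis and hypoxia Pdk1, a kinase that restrains pyruvate dehydrogenase, was higher (log2 fold change 0.27, SE 0.06, edgeR adjusted p = 0.0234) and Vegfa lower. The called share was 10% for sterol synthesis, 9.52% for glycolysis and hypoxia and 4.55% for the nuclear genes of the respiratory chain. Nuclear genes of the respiratory chain had 1 of 22 lower, Cox7a2 (log2 fold change -0.19, SE 0.05, edgeR adjusted p = 0.0475), with 7 lower and 1 higher at an unadjusted p below 0.05 and none called by DESeq2. None of the 13 mRNAs of mitochondrial DNA was called by edgeR (3 higher at an unadjusted p below 0.05), and 2 were called higher by DESeq2. Their median was 0.12, and mt-Co1 came nearest (log2 fold change 0.19, SE 0.06, edgeR adjusted p = 0.0768). Their share of the reads was 1.41, 1.12 and 0.980% in line 7, against 1.10, 0.975 and 0.892% in line 6 at t0, t6 and t48, and its part in other differences was not tested. Elovl6 and Idi1 lost their calls without either t48 library (edgeR adjusted p up to 0.0575 and 0.218). Acsl4 lost its call without the line 7 t0 library or the line 6 t48 library (edgeR adjusted p up to 0.0532). Scd1 lost its call without any t0 or t48 library or the line 6 t6 library (edgeR adjusted p up to 0.225). Ebp and Pdk1 lost their calls without either t6 library (edgeR adjusted p up to 0.176 and 0.0915). Cox7a2 lost its call without any t6 or t48 library or the line 7 t0 library (edgeR adjusted p up to 0.179). The adjusted p was 0.0758 for Elovl6, 0.164 for Acsl4, 0.217 for Idi1, 0.659 for Ebp, 0.0638 for Pdk1 and 0.159 for Cox7a2 with length offsets and 0.0804 for Idi1, 0.111 for Ebp and 0.235 for Cox7a2 with DESeq2. RLE size factors gave 0.0512 for Cox7a2, and the filterByExpr filter 0.0528 for Cox7a2 and 0.0505 for Scd1.

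Transcripts of 9 pigment markers were scarce in both lines, and these 9 by themselves do not bear out the melanoma label. Pax3, given below, was not scarce. In a wider list of 16 pigment lineage genes 3 were tested and none was called. The identity of the cells was not tested. Of 9 pigment markers Mitf alone passed the filter, their summed level was 4.36 to 5.87 CPM in line 7 and 4.12 to 5.88 CPM in line 6, and Tyrp1 and Mlana were at 0 in all 6 libraries. Mitf, the central transcription factor of pigment cells, had 4.21, 4.74 and 3.47 CPM in line 7, against 3.41, 5.0 and 3.49 CPM in line 6 and was not called (log2 fold change 0.07, SE 0.16, edgeR adjusted p = 0.826). Pax3, which acts upstream of Mitf, had 63.3, 67.7 and 90.5 CPM in line 7, against 63.1, 64.2 and 87.4 CPM in line 6 (log2 fold change 0.04, SE 0.05, edgeR adjusted p = 0.636). Melanoma dedifferentiation genes had Wnt5a higher and Nes, the intermediate filament nestin, lower (log2 fold change -0.32, SE 0.06, edgeR adjusted p = 0.0123) of 16. These were 12.5% of the list, against 7.40% of all genes tested. Nes lost its call without either t6 library (edgeR adjusted p up to 0.0689). With length offsets the adjusted p was 0.0638 for Nes.

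Fibroblast markers reached a summed 7740 to 16997 CPM in line 7 and 8570 to 16000 CPM in line 6 over 10 genes. The collagen genes Col1a1, Col1a2 and Col3a1 made up 94.11 to 97.61% of this sum in line 7 and 95.04 to 97.74% in line 6. Lum was at 0, and Thy1, Fap and Dpt reached at most 0.094, 0.401 and 0.846 CPM. Pdgfra had 165 to 255 CPM, Pdgfrb 192 to 221 CPM and Dcn 3.21 to 7.03 CPM over the 6 libraries. Of the 6 tested Pdgfra and Dcn were higher (33.3% called, against 7.40% of all genes tested), both also in lists above. Whether other cells contribute to the called genes was not tested. Leukocyte markers summed to 8.23 to 13.8 CPM in line 7 and 9.47 to 15.03 CPM in line 6, with Ptprc, Cd3e and Adgre1 at 0. Keratinocyte markers summed to 2.52 to 4.34 CPM in line 7 and 2.75 to 4.34 CPM in line 6. Endothelial markers summed to 2.30 to 4.58 CPM in line 7 and 3.28 to 3.72 CPM in line 6, with Kdr, Tek and Emcn at 0. The 1 tested member of each of these 3 lists was not called: Cd68 (-0.02, SE 0.09), Krt10 (0.19, SE 0.21) and Pecam1 (0.03, SE 0.20).

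Line 16, titled NLS like both but with Adcy10 near 1 CPM, gives a further level for these genes. In a fit of all 9 NLS libraries with 11803 genes, edgeR called 1488 genes between lines 7 and 6 (12.6%), of which 763 were higher (6.46%), 725 lower (6.14%) and 34 changed by 2-fold or more (0.288%). It called 2981 between lines 7 and 16 (25.3%) and 270 between lines 6 and 16 (2.29%). The comparisons share libraries, so they are given side by side. Ptn had 120.5, 141 and 143 CPM in line 16, Uchl1 22.2, 28.9 and 24.2 and Cryab 141, 138 and 136 at t0, t6 and t48, values nearer line 6 than line 7. For Nr4a3 line 16 had 0.671, 1.10 and 1.17 CPM and for Sik1 14.1, 16.2 and 20.3 CPM, in both below line 7 at each label, and for Ccn2 267, 233 and 540.5 CPM, above both. Between lines 7 and 16 Nr4a3 was not called in that fit (log2 fold change 0.32, SE 0.25, edgeR adjusted p = 0.371). Sik1 was called (log2 fold change 0.57, SE 0.11, edgeR adjusted p = 0.00318).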

How the data were processed

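The 13 libraries are stranded paired-end mRNA libraries. Per the submitters' processing notes, the authors used Salmon 1.2.0 and the build GRCm38. The transcript set and the options of Salmon were not given in the sources used. The deposited tables hold estimated counts (the reads Salmon assigned to each transcript), which were used, and TPM, which were not, and the effective transcript length, another deposited value, used only for length offsets. Transcripts matched to the GRCm38 annotation (115977 of 116546, 99.51%) were summed over 35498 genes and rounded; unmatched transcripts held 0.1397 to 0.1649% of the reads in line 7 and 0.1264 to 0.1534% in line 6. Intervals cover counting error only.

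Genes at 1 CPM or more in 3 of the 6 libraries were tested with edgeR 4.0.16 (R 4.3.3, TMM, quasi-likelihood, line and time label, Benjamini-Hochberg). SEs are the log2 fold change over the root of F. Levels are CPM over TMM sizes of all 13 libraries, and differences at 1 label use a pseudocount of 0.5 CPM. Named were the 12 largest non-overlapping changes in each direction (mean log2 CPM of 1 or more, no predicted genes), up to 3 called members of each list in each direction by smallest p, or the nearest member, and Adcy10, Nr4a1, Crem, Ccn1, Ccn2, Mitf and Cdkn1a. Some genes that this rule names are not reported here. Further members named in the text were chosen after their values were seen. The members and the 38 gene lists were chosen with earlier results of these data known.

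The libraries share time labels, which served as the replicate block. Libraries with the same label deviated together from their line means (r = 0.681 at t0, 0.770 at t6 and 0.866 at t48 across 9454 genes, which are not independent replicates), against -0.59 to -0.09 for different labels. Deviations from a line mean cancel out over the libraries of that line, which in part fixes the negative values. Alternatives were RLE size factors, DESeq2 1.42.0, other filters, no block, all 9 NLS libraries, length offsets and leaving out each library or label. The code was tested on simulated data. RefSeq promoters come from GRCm38.p6.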

Additional observations from a re-analysis of the deposited data

How the results depend on the processing

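DESeq2 called 482 genes between lines 7 and 6 (272 higher, 210 lower), 1436 at t6 over t0 and 1992 at t48 over t0. With no filter on low counts edgeR called 1372 (682 higher, 690 lower, 78 by 2-fold or more), and with all 9 NLS libraries 1488 (763 higher, 725 lower). With length offsets it called 159 (74 higher, 85 lower, 17 by 2-fold or more) and 29 list members. Without the replicate block, which drops the pairing by time label, the counts were 0 called, 0 higher, 0 lower, 0 by 2-fold or more and 0 of the 98 list members, 512 genes had an unadjusted p below 0.05, and Adcy10 stayed at -0.90 with an adjusted p of 0.0999. Without t6 541 genes were called (193 lower), and without t48 557 (281 higher). Leaving out each library in turn gave 441 to 879 called, 229 to 500.0 higher, 165 to 379 lower, 30 to 44 by 2-fold or more and 61 to 101 list members. Leaving out 1 library of line 7 or 6 from the fit of 9, an alternative chosen after seeing the data, gave 591 to 1287 called, 304 to 700.0 higher, 287 to 611 lower and 19 to 56 by 2-fold or more. Presence at 0.5 CPM gave 17, 30 and 12 genes for t6 over t0, t48 over t0 and t48 over t6. The cause of these shifts was not tested.

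Among the named genes signs turned for 3, none of them called. Over all 857 called genes 854 kept their direction with length offsets. Cd68 was 0.0031 with length offsets, 0.0092 without t6, 0.049 without t48, -0.112 to 0.0486 without 1 library, and -0.112 to 0.0397 without 1 of the 9 libraries (0.016 without line 7 t48 and 0.0062 without line 6 t6). Pecam1 was -0.018 without t6, -0.15 without t48, -0.147 to 0.259 without 1 library, and -0.152 to 0.308 without 1 of 9 (-0.046 without line 7 t6 and -0.033 without line 6 t48). Mitf was -0.21 with length offsets, -0.044 without t0, -0.0435 to 0.151 without 1 library, and -0.0461 to 0.171 without 1 of 9. Of 99 named calls 42 held in all 6 fits without 1 library, and 29 of these also under RLE, DESeq2, both filters, 9 libraries and length offsets. Without 1 of the 9 libraries, 62 of the 99 held in all fits, 37 of them among the 42. Counts of reads limit genes near 1 CPM, and 1 library at each line and label limits every comparison between labels.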

Other observations

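Predicted or scarce genes outside the lists also separated the lines; they were chosen after their values were seen. Gm15899 was the only gene present in every line 7 library and absent in every line 6 library by the limits of 1 and 0.1 CPM, with 5.81, 6.49 and 2.09 CPM in line 7, against 0 CPM in all 3 line 6 libraries at t0, t6 and t48. Slpi, a secreted protease inhibitor of mucosal surfaces, had 1.82, 3.14 and 2.94 CPM in line 7, against 0.222, 1.21 and 0.519 CPM in line 6 (log2 fold change 2.10, edgeR adjusted p = 0.00339), with no overlap.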
